A study of Mus musculus with 6 samples.

Results

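The genes examined here encode dual-specificity phosphatases that act on MAP kinases. They were taken as the rows of the deposited gene table whose Ensembl ID maps to Dusp1, Dusp2, Dusp4, Dusp5, Dusp6, Dusp7, Dusp8, Dusp10, Dusp14 or Dusp16, which gave 10 of 56980 genes. Their expression was compared between tumor-associated macrophages (TAMs) of wild-type (WT) mice and of mice lacking the C5a receptor (C5aR-/-), in 3 libraries per group. Both groups were female C57BL/6 mice of 6 to 8 weeks that received ID8 cells, a mouse ovarian epithelial cancer line, into the peritoneum, and the tumors were taken 2 months later. The C5aR-/- mice carried the knockout in all cell types on a C57BL/6 background. After enzymatic dissociation of the tumors, live CD45+CD11b+Ly6G-F4/80+ cells were sorted and their poly(A) RNA was sequenced. The labels do not say whether each library came from a single mouse, so the p-values measure only the spread between these libraries. The number of mice per group stated in the figure legends does not match the number of libraries per group used here.

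MAP kinases (ERK, JNK and p38) are switched on when a kinase upstream phosphorylates a threonine and a tyrosine in their activation loop. Dual-specificity phosphatases remove both phosphates and so switch the kinase off, and several of their genes are themselves induced by MAP kinase signaling, which closes a negative feedback loop. In macrophages this loop is known for limiting the output of inflammatory cytokines after Toll-like receptor stimulation.

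The members share a catalytic loop in which a cysteine attacks the phosphate and an arginine holds it. In the principal coding transcript of each gene (GENCODE M21, GRCm38), exactly 1 such loop was found by translation in all 10 members. The 27 bases that encode it are shown for 5 members because the loop defines the family. The capitals mark the cysteine codon and the arginine codon.
Dusp1: catTGCcaggccggcatctccCGGtca
Dusp4: cacTGCcaggccggcatctccCGAtca
Dusp5: cacTGCgaagctggggtttccCGGtcg
Dusp6: catTGCttggcaggtatcagcCGCtct
Dusp14: cacTGTgcggcaggcgtgagcCGCtcg
The loops of Dusp1 and Dusp4 were identical at 25 of 27 bases, the closest pair of the family, whereas Dusp5 and Dusp6 shared 15 and Dusp4 and Dusp14 shared 17. The coding sequence ranged from 198 codons in Dusp14, an atypical member that lacks the kinase-binding domain of the others, to 663 codons in Dusp8. The cysteine was codon 284 of 398 in Dusp4 and codon 258 of 367 in Dusp1.

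The deposited values are TPM (transcript abundance scaled for transcript length and to 1000000 per library) and therefore allow levels of different genes to be set side by side. Sequencing depth cannot be read from TPM, and the counting error of single values is unknown. Differences were tested with limma on log2(TPM + 1) over the 14776 genes that reached 1 TPM in 3 or more libraries. Changes of weakly expressed genes appear smaller on this scale than they are. All 10 members passed this filter. C5ar1, which encodes the deleted receptor, was 86.5, 37.3 and 16.2 TPM in the WT libraries and 0.38, 0.11 and 0.05 TPM in the C5aR-/- libraries. All 12 macrophage marker genes were detected in every library, but their summed TPM ranged from 2639 to 9018 in WT and from 2606 to 8959 in C5aR-/- TAMs. Epithelial genes (6 markers, among them the keratins Krt8, Krt18 and Krt19) summed to between 1669 and 2211 TPM and mesothelial genes (5 markers) to between 711 and 1254 TPM, so the sorted cells were not free of other RNA. In such bulk samples, fewer cells of a type and less RNA per cell cannot be told apart.

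Expression of the family was dominated by a few members. Dusp1 averaged 737 TPM over the 6 libraries (range 301 to 1246), which placed it at the 98.7th percentile of the genes tested. Dusp6 followed at 157 TPM and Dusp5 at 76.9 TPM. In all 6 libraries Dusp1 exceeded Dusp6 and Dusp6 exceeded Dusp5, which in turn exceeded Dusp16. Together Dusp1, Dusp5 and Dusp6 made up from 83.4% to 91.6% of the summed TPM of the 10 genes. Below them the order differed between the groups. Dusp4 (29.7 TPM over all libraries) was below Dusp16 (32.0 TPM) and Dusp10 (21.7 TPM) in all 3 WT libraries and above both in all 3 C5aR-/- libraries. In WT, however, Dusp4 and Dusp10 were nearly equal, at 21.4 against 21.6, 16.2 against 17.4 and 12.3 against 13.3 TPM. Dusp14 averaged 12.9 TPM, Dusp7 10.4 TPM, Dusp8 7.76 TPM and Dusp2 6.95 TPM, and each was above the next in 4 or 5 of the 6 libraries.

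**Figure D1:**
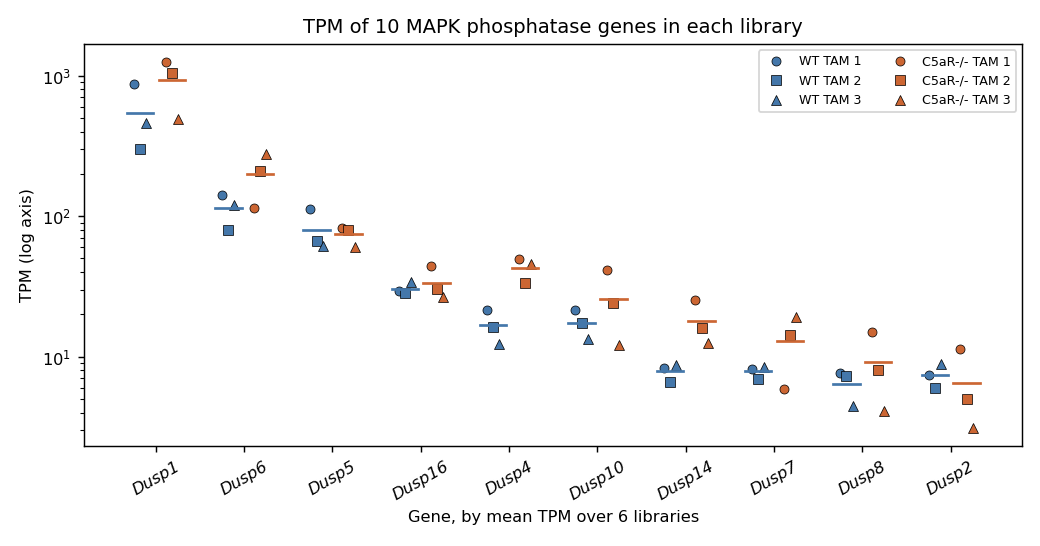
TPM (log axis) of the 10 phosphatase genes in 3 WT (blue) and 3 C5aR-/- (orange) libraries, ordered by mean TPM, with a symbol for each library number and a horizontal line for each group mean. The groups are apart for Dusp4 and Dusp14 and overlap for the other 8 genes.

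The comparison of the groups asks whether loss of C5aR was accompanied by a different expression of these MAPK inhibitors in TAMs. Dusp4 and Dusp14 were more than 2-fold higher in C5aR-/- TAMs, with log2 differences of 1.32 and 1.06 and adjusted p from limma of 0.103 and 0.186. They passed only the unadjusted threshold given below, and the other 8 members did not pass it. With limma, 0 of 10 members passed the adjusted threshold (a change of 2-fold or more and an adjusted p under 0.05), as did 0% of all genes. Even the deleted gene C5ar1 missed it, with a log2 difference of -5.04 and an adjusted p of 0.0666 from limma. The study's methods also name the raw p under 0.05 for changes of 2-fold or more. At this unadjusted threshold 2 of 10 members were higher in C5aR-/- TAMs and 0 were lower. Of all genes tested, 2.13% passed as higher and 2.84% as lower, 4.96% in all. Without regard to fold change, these 2 members had a raw p under 0.05, as did 14.4% of all genes. The groups did not overlap in these 2 members, with all 3 C5aR-/- libraries above all 3 WT libraries, a pattern found in 8.84% of all genes. Of the 10 log2 differences, 8 were above 0, against 44.5% of all genes, and their median was 0.48 against -0.05 over all genes tested. The median was 0.28 without C5aR-/- TAM 1. The macrophage markers had a similar median, 0.47, with 8 of 12 above 0. The members were chosen with earlier results of these data known, so this is a description of the family.

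**Figure D2:**
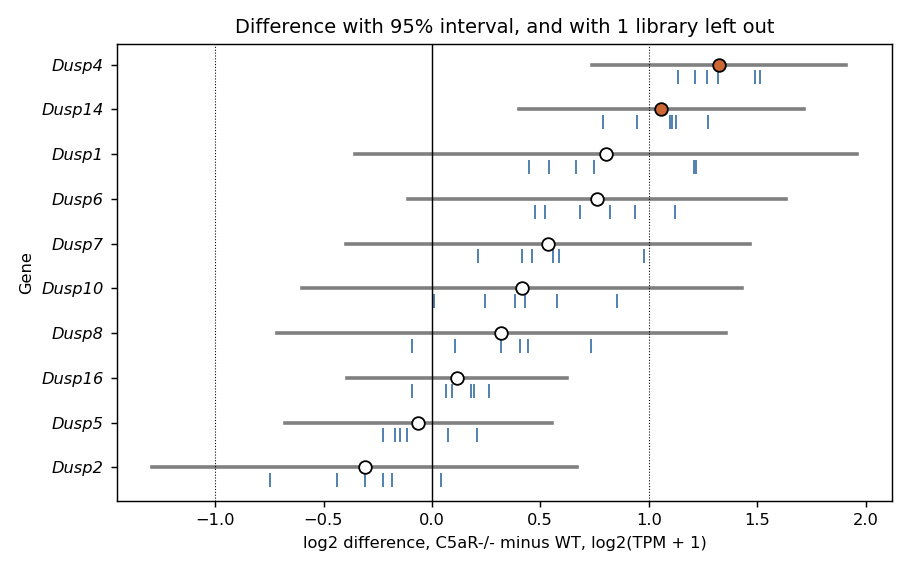
log2 difference in log2(TPM + 1), C5aR-/- minus WT, for each gene (circle), with limma's 95% confidence interval (gray line) and the values with 1 library left out (blue ticks). Filled circles passed the unadjusted threshold, and dotted lines mark a 2-fold change; Dusp4 and Dusp14 are filled, and the intervals of the other 8 genes include 0.

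Among the nuclear, inducible members, Dusp4 differed most. Dusp4 (ENSMUSG00000031530, chr8:34807297-34819894, plus strand, GRCm38) encodes a close relative of Dusp1 that inactivates ERK and JNK in the nucleus. Its level was 21.4, 16.2 and 12.3 TPM in the WT libraries and 49.5, 33.3 and 45.7 TPM in the C5aR-/- libraries. The lowest C5aR-/- library was above the highest WT library. The mean was 16.7 ± 4.56 TPM (SD, n = 3) in WT and 42.8 ± 8.49 TPM (SD, n = 3) in C5aR-/- TAMs, 2.57 times as high. The log2 difference of 1.32 had a 95% confidence interval from 0.74 to 1.91 (limma, standard error 0.24, unadjusted p = 0.00116, adjusted p = 0.103), and the two-sided exact permutation p was 0.1, the smallest that 3 against 3 libraries allow. Leaving out any 1 library gave log2 differences between 1.14 and 1.51, and Dusp4 passed the unadjusted threshold in all 13 alternative fits, with adjusted p from limma between 0.075 and 0.421.

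Dusp1 (ENSMUSG00000024190, minus strand, chr17:26505590-26562128) encodes the prototype of the family, an immediate early gene product that inactivates mainly p38 and JNK. It was 877, 301 and 458 TPM in the WT libraries and 1246, 1050 and 493 TPM in the C5aR-/- libraries. WT TAM 1 lay above C5aR-/- TAM 3, so the groups overlapped. The log2 difference was 0.80 with an interval from -0.35 to 1.96 (adjusted p = 0.496 from limma). It passed the unadjusted threshold only when either of these overlapping libraries was left out, at 1.22 without WT TAM 1 and 1.21 without C5aR-/- TAM 3.

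Dusp5, whose product inactivates ERK alone, was 112, 66.1 and 61.0 TPM in WT and 82.5, 79.2 and 60.6 TPM in C5aR-/- TAMs. Its values interleaved, and the log2 difference of -0.06 had an interval from -0.68 to 0.55, which does not reach a 2-fold change in either direction. Dusp2, a nuclear phosphatase known mainly from blood cells, was 7.38, 5.97 and 8.93 TPM in WT and 11.3, 4.98 and 3.12 TPM in C5aR-/- TAMs. The highest and the 2 lowest of its 6 values were C5aR-/- libraries, and the log2 difference of -0.31 had an interval from -1.29 to 0.67. The signs of Dusp5 and Dusp2 depended on single libraries. Dusp5 was at 0.21 without WT TAM 1 and 0.07 without C5aR-/- TAM 3, and Dusp2 was at 0.04 without C5aR-/- TAM 3.

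The regulatory sequence upstream of 2 of these inducible genes is shown because both are classical signal-responsive promoters. RefSeq promoter sequences (GRCm38.p6) were matched for 9 of 10 members, and the bases from 250 to 51 before the annotated start were searched for 3 motifs on both strands. TGACGTCA, the full cyclic AMP response element, was found in 2 of the 9 members, Dusp1 and Dusp8, and in 0.828% of 32851 promoter windows of the same 200 bases. The CArG box of serum response factor was found in Dusp5 and in 1.16% of windows. The AP-1 site TGACTCA was found in 0 of the 9 members and in 3.61% of windows. For Dusp1 this RefSeq start lies inside the longer GENCODE span given above, not at its end. The capitals in the sequences below mark the motifs, which in Dusp5 are 2 adjacent CArG boxes, and both sequences read toward the start of the gene.
Dusp1 (chr17:26508523-26508722, minus strand): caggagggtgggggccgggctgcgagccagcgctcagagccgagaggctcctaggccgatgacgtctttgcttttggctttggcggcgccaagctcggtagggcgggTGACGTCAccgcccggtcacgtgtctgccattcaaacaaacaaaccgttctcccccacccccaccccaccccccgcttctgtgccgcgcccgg
Dusp5 (chr19:53528895-53529094, plus strand): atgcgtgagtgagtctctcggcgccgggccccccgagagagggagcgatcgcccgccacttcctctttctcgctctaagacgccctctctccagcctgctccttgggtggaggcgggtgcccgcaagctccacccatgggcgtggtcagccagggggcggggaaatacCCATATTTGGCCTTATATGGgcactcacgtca
A match describes the letters and does not show that a factor was bound in these cells.

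The cytoplasmic members that act on ERK were highest in the same 2 libraries. Dusp6 (ENSMUSG00000019960, chr10:99263231-99267489, plus strand) encodes an ERK phosphatase whose transcription follows ERK activity. It was 141, 79.2 and 120 TPM in WT and 113, 209 and 279 TPM in C5aR-/- TAMs. C5aR-/- TAM 2 and 3 lay above all WT libraries, and C5aR-/- TAM 1 lay among them. Dusp7, a close relative of Dusp6, was 8.10, 6.95 and 8.49 TPM in WT and 5.90, 14.1 and 19.0 TPM in C5aR-/- TAMs. Again C5aR-/- TAM 2 and 3 lay above the WT range, but C5aR-/- TAM 1 lay below all WT libraries. The log2 difference was 0.76 for Dusp6, with an interval from -0.11 to 1.63 (limma, adjusted p = 0.399), and 0.54 for Dusp7, with an interval from -0.40 to 1.47 (adjusted p = 0.575). Without C5aR-/- TAM 1 the log2 difference of Dusp6 was 1.12 and passed the unadjusted threshold, and that of Dusp7 was 0.98 and did not reach a 2-fold change.

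The members directed at JNK and p38 had the opposite distribution among the C5aR-/- libraries. Dusp10, which restrains JNK and p38 in innate and adaptive immune cells, was 21.6, 17.4 and 13.3 TPM in WT and 41.3, 24.2 and 12.2 TPM in C5aR-/- TAMs. C5aR-/- TAM 1 was the highest of the 6 libraries and C5aR-/- TAM 3 the lowest. Dusp8 followed the same order within C5aR-/- TAMs, at 15.1, 8.09 and 4.13 TPM against 7.64, 7.22 and 4.42 TPM in WT. Dusp16, a JNK phosphatase that shuttles between nucleus and cytoplasm, varied least of the 3, at 29.2, 28.1 and 33.8 TPM in WT and 44.4, 30.1 and 26.6 TPM in C5aR-/- TAMs. The groups overlapped in all 3 genes. Their log2 differences were 0.42, 0.32 and 0.12, with intervals from -0.60 to 1.43, from -0.72 to 1.36 and from -0.39 to 0.62. Without C5aR-/- TAM 1 they were 0.01 for Dusp10, -0.09 for Dusp8 and -0.09 for Dusp16.

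Dusp14 (ENSMUSG00000018648, chr11:84048041-84069261, minus strand), the atypical member, is known as a negative regulator of T cell receptor signaling. It was 8.31, 6.56 and 8.68 TPM in WT and 25.5, 16.1 and 12.6 TPM in C5aR-/- TAMs. The groups did not overlap, and the C5aR-/- libraries were more spread than the WT libraries. The mean was 7.85 ± 1.13 TPM (SD, n = 3) in WT and 18.1 ± 6.68 TPM (SD, n = 3) in C5aR-/- TAMs, 2.30 times as high. The log2 difference of 1.06 had an interval from 0.40 to 1.72 (limma, standard error 0.28, unadjusted p = 0.00697, adjusted p = 0.186, exact permutation p = 0.1). It fell below a 2-fold change without WT TAM 2 (0.95) and without C5aR-/- TAM 1 (0.79), and remained above it in the other 11 alternative fits, with adjusted p between 0.109 and 0.612 over all 13.

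**Figure D3:**
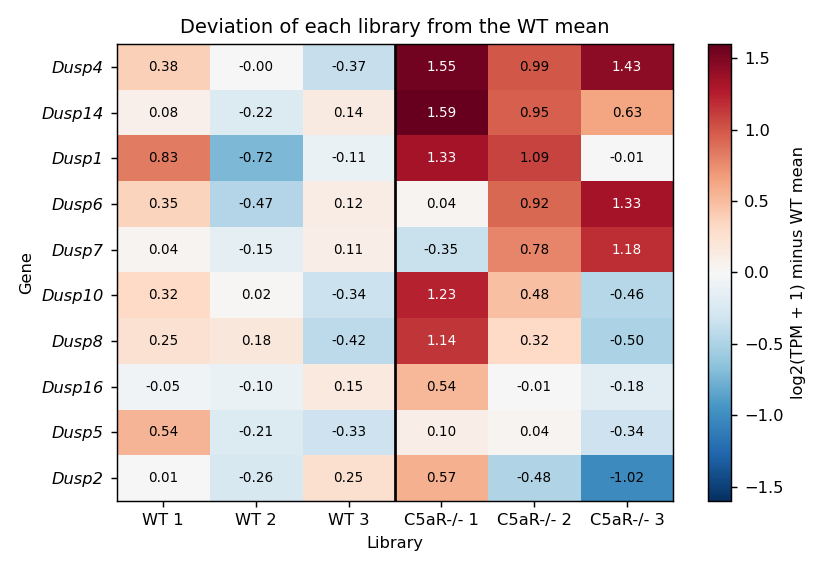
Deviation of each library from the WT mean in log2(TPM + 1), for the 10 genes (rows, by log2 difference) and 6 libraries (columns), with values printed in the cells. Dusp4 and Dusp14 are positive in all 3 C5aR-/- libraries, Dusp6 and Dusp7 are highest in C5aR-/- 3, and Dusp10, Dusp8, Dusp16 and Dusp2 are highest in C5aR-/- 1.

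Seen by library, 7 of the 10 members were highest in C5aR-/- TAM 1, and 5 of 10 were lowest in C5aR-/- TAM 3. The macrophage markers also differed between these libraries, with a summed TPM of 8959 in C5aR-/- TAM 1, 5110 in C5aR-/- TAM 2 and 2606 in C5aR-/- TAM 3, against 9018, 3763 and 2639 in WT TAM 1, 2 and 3. These sums were mostly Lyz2, the lysozyme gene of macrophages and neutrophils. Without it, a sum added after the data were seen, they were 3207, 1470 and 1230 TPM in WT and 4172, 2331 and 1456 TPM in C5aR-/- TAMs. The macrophage markers resembled most members in the direction of the group difference. Within each group, Dusp5, Dusp8 and Dusp10 fell from TAM 1 to TAM 3, as both macrophage sums did. Dusp1, Dusp2, Dusp14 and Dusp16 followed this order only in C5aR-/- TAMs, and Dusp4 only in WT. Dusp6 and Dusp7 were highest in C5aR-/- TAM 3, where the macrophage sum was lowest. Of the 12 macrophage markers 8 had a log2 difference above 0, with a median of 0.47. By limma, 1 of them had a raw p under 0.05, against 14.4% of all genes. It was the IgG receptor gene Fcgr1 (named after its values were seen, log2 difference 0.82). Its C5aR-/- libraries were all above the WT libraries, a pattern found in 8.84% of all genes. Cd68, a lysosomal marker, averaged 131 TPM in WT and 245 TPM in C5aR-/- TAMs with overlapping libraries. Ranked within each group, the macrophage sum without Lyz2 was higher in C5aR-/- than in WT TAMs at every rank, but the groups overlapped. Its highest value was in C5aR-/- TAM 1 and its lowest in WT TAM 3. Markers of other cell types also differed between the groups. Of all genes tested, 2.84% passed the unadjusted threshold as lower and 2.13% as higher. The 8 neutrophil markers summed to between 635 and 2332 TPM in WT and between 32.1 and 400 TPM in C5aR-/- TAMs, with 5 of 7 tested genes lower at the unadjusted threshold and Ly6g at 0 in C5aR-/- TAM 1 and 3. Of the 5 mast cell markers, 4 were lower and Kit was higher at that threshold (sums 82.6 to 136 TPM in WT, 59.4 to 87.8 TPM in C5aR-/-), with Cpa3 and Tpsb2 at 0 in C5aR-/- TAM 3 and Mcpt4 at 0 in C5aR-/- TAM 2 and 3. Of the 5 mesothelial markers, 3 were lower at that threshold (sums 918 to 1254 TPM in WT, 711 to 966 TPM in C5aR-/-). Msln, named after its values were seen, was higher without overlap, at 145, 135 and 180 TPM in WT and 268, 284 and 288 TPM in C5aR-/- TAMs. Its log2 difference of 0.88 (interval 0.53 to 1.22) was under a 2-fold change, and that of the marker Wt1 was -0.10. Among epithelial, fibroblast, endothelial, dendritic, NK, T and B cell markers, 1 passed, as lower (the fibroblast gene Col1a2, named after its values were seen). The keratin gene Krt8, also named after its values were seen, was higher without overlap. It was 465, 455 and 460 TPM in WT and 758, 624 and 743 TPM in C5aR-/- TAMs. Its log2 difference of 0.62 (interval 0.29 to 0.94) was under a 2-fold change, and 4 of the 6 epithelial markers had log2 differences below 0. The part of macrophage content and of these other cells in the difference of Dusp4 and Dusp14 was not tested.

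Of 12 tested MAP kinases, the substrates of these phosphatases, 0 were higher and 1 was lower at the unadjusted threshold. Of all genes tested, 2.13% and 2.84% passed in these directions. The groups did not overlap in 2 higher and 1 lower kinase genes, against 8.84% and 12.5% of all genes. The median log2 difference was 0.10. Mapk3, which encodes ERK1, averaged 176 TPM in WT and 167 TPM in C5aR-/- TAMs, with a log2 difference of -0.07 (interval -0.45 to 0.31). The JNK genes Mapk8 and Mapk9 had log2 differences of 0.07 and -0.43, and Mapk14, the main p38 gene, -0.29. All of these intervals included 0, and those of Mapk3, Mapk8 and Mapk9 did not reach a 2-fold change. Mapk13, a p38 isoform of epithelial and some immune cells, was the lower gene, at 4.04, 9.30 and 10.9 TPM in WT and 2.22, 4.21 and 2.84 TPM in C5aR-/- TAMs. WT TAM 1 and C5aR-/- TAM 2 overlapped, and its log2 difference of -1.09 (limma, adjusted p = 0.279) was no longer past the threshold without WT TAM 2, WT TAM 3, C5aR-/- TAM 1 or C5aR-/- TAM 3 (-1.06 to -0.85). Mapk4, an atypical MAP kinase named after its values were seen, was on the other side, at 5.44, 3.03 and 5.64 TPM in WT and 8.75, 10.5 and 10.9 TPM in C5aR-/- TAMs. Its groups did not overlap, and its log2 difference of 0.99 (interval 0.38 to 1.59, adjusted p = 0.178 from limma) was just under a 2-fold change. It passed the unadjusted threshold in 6 of 13 alternative fits, among them those without WT TAM 1 (1.09), WT TAM 3 (1.11) or C5aR-/- TAM 1 (1.07).

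Upstream of the MAP kinases, 0 of 7 MAPK kinases and 0 of 16 MAPK kinase kinases passed the unadjusted threshold in either direction, with median log2 differences of -0.02 and 0.03. By limma, a raw p under 0.05 was found for 0 of the 7 and 1 of the 16, against 14.4% of all genes. Map2k1 and Map2k2, the kinases of ERK, averaged 56.4 and 57.5 TPM in WT and 67.1 and 68.1 TPM in C5aR-/- TAMs, and both had a log2 difference of about 0.23 to 0.24 with an interval that included 0. Araf, a kinase at the head of the ERK branch, averaged 73.7 TPM in WT and 57.5 TPM in C5aR-/- TAMs, with overlapping libraries (log2 difference -0.37, interval -0.84 to 0.09).

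Other genes are known to report on ERK signaling. Of 10 tested ERK feedback targets, 0 were higher and 1 was lower at the unadjusted threshold, where 2.13% and 2.84% of all genes passed. The groups did not overlap in 2 higher and 3 lower targets, against 8.84% and 12.5% of all genes. Their median log2 difference was -0.15. The lower gene was Spry4, a Sprouty inhibitor of receptor tyrosine kinase signaling, at 17.9, 10.7 and 10.5 TPM in WT and 5.84, 7.5 and 4.32 TPM in C5aR-/- TAMs. Its groups did not overlap, and its log2 difference was -1.01 (interval -1.69 to -0.33, adjusted p = 0.21 from limma). The fold change of Spry4 fell under 2 with quantile normalization (-0.96) and median-of-ratios scaling (-0.97), without WT TAM 1 (-0.77) and without C5aR-/- TAM 3 (-0.84). Phlda1, an abundant target of ERK signaling, was 161, 155 and 172 TPM in WT and 96.0, 91.8 and 95.7 TPM in C5aR-/- TAMs. Its libraries were tightly grouped, with a log2 difference of -0.78 (interval -1.04 to -0.51, adjusted p = 0.0666 from limma), under a 2-fold change. Ier3 averaged 581 ± 243 TPM in WT and 480 ± 113 TPM in C5aR-/- TAMs (SD, n = 3), a difference within the spread between libraries. Other genes of the list were higher without passing the threshold, and 2 of them, named after their values were seen, did not overlap between the groups. Spry1, a relative of Spry4, was 4.45, 3.35 and 4.38 TPM in WT and 4.79, 9.34 and 14.8 TPM in C5aR-/- TAMs (log2 difference 0.96, interval 0.07 to 1.86). Etv4, an ETS transcription factor induced by ERK signaling, was 26.1, 19.3 and 23.3 TPM in WT and 26.5, 35.6 and 66.7 TPM in C5aR-/- TAMs (0.78, interval -0.01 to 1.58). Both were highest in C5aR-/- TAM 3 and next in C5aR-/- TAM 2, the order also seen for Dusp6 and Dusp7, and both passed the threshold without C5aR-/- TAM 1 (1.34 and 1.07).

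Immediate early genes, which MAP kinases induce within minutes and which include the transcription factors of the AP-1 and EGR families, were abundant in all libraries. The 21 genes summed to between 6374 and 9969 TPM in WT and between 5300 and 12114 TPM in C5aR-/- TAMs. At the unadjusted threshold 0 of 21 were higher and 2 were lower, where 2.13% and 2.84% of all genes passed. The groups did not overlap in 2 higher and 3 lower genes of this list, against 8.84% and 12.5% of all genes. The median log2 difference was 0.09. Fos was 1727, 620 and 1001 TPM in WT and 1535, 1770 and 666 TPM in C5aR-/- TAMs. Like Dusp1, it was highest in WT TAM 1, C5aR-/- TAM 1 and C5aR-/- TAM 2 and lowest in WT TAM 2. Jun was 1360, 1053 and 2232 TPM in WT and 2265, 3154 and 544 TPM in C5aR-/- TAMs, with log2 differences of 0.25 for Fos and 0.09 for Jun that were smaller than their standard errors of 0.49 and 0.66.

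Nr4a1, a nuclear receptor induced by many stimuli, was 349, 274 and 227 TPM in WT and 89.3, 164 and 34.5 TPM in C5aR-/- TAMs (log2 difference -1.79, adjusted p = 0.224 from limma). Klf2, a Krüppel-like factor that quiets myeloid activation, was 106, 35.5 and 39.7 TPM in WT and 19.3, 26.7 and 21.4 TPM in C5aR-/- TAMs (-1.22, adjusted p = 0.267). The groups did not overlap in either gene. Nr4a1 passed the unadjusted threshold in all 13 alternative fits, whereas Klf2 did not pass without WT TAM 1 (-0.73), C5aR-/- TAM 1 (-1.12) or C5aR-/- TAM 3 (-1.19). Egr1 was 946, 1049 and 1028 TPM in WT and 466, 843 and 491 TPM in C5aR-/- TAMs, without overlap. Its log2 difference of -0.80 (interval -1.39 to -0.21) was under a 2-fold change, and it passed the threshold without C5aR-/- TAM 2 (-1.07). In the other direction 2 genes, named after their values were seen, did not overlap and had a raw p under 0.05 with less than a 2-fold change. Myc, a transcription factor of cell growth, was 125, 118 and 80.5 TPM in WT and 245, 155 and 230 TPM in C5aR-/- TAMs (log2 difference 0.96, interval 0.37 to 1.54), and it passed the threshold with median-of-ratios scaling and without WT TAM 1 (1.07), WT TAM 2 (1.03) or C5aR-/- TAM 2 (1.16). Nr4a2, a relative of Nr4a1, was 3.65, 4.07 and 3.01 TPM in WT and 8.04, 6.66 and 4.37 TPM in C5aR-/- TAMs (0.66, interval 0.05 to 1.27).

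**Figure D4:**
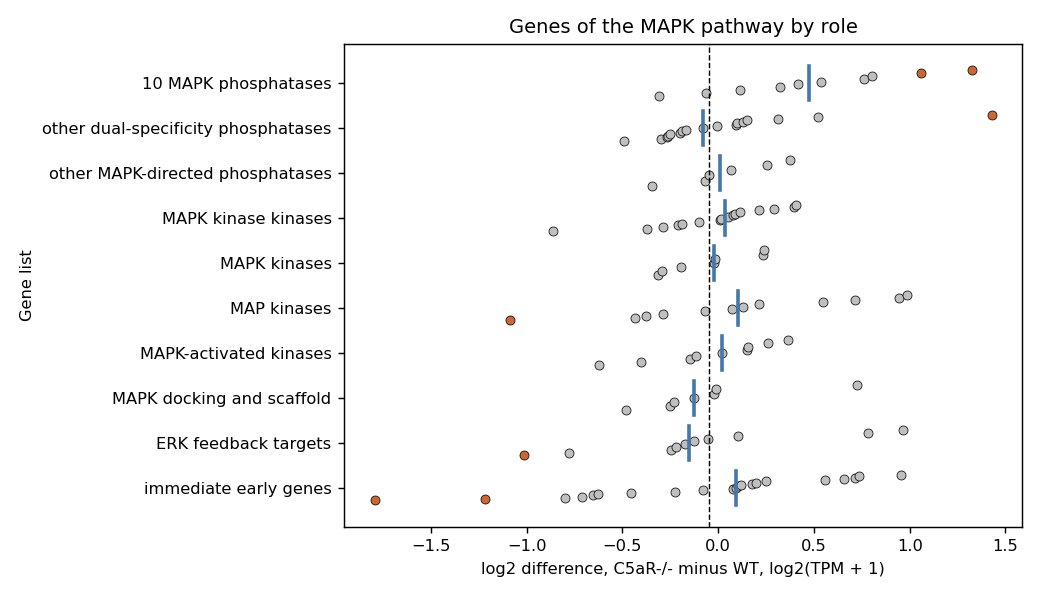
log2 difference in log2(TPM + 1), C5aR-/- minus WT, of the tested genes of 10 lists (points, spread vertically by rank), with the list median (blue bar) and the median of all 14776 genes tested (dashed line, -0.05). Orange points passed the unadjusted threshold, as did 2.13% (right) and 2.84% (left) of all genes tested. The phosphatase list has 2 of them on the right, and the MAP kinase, ERK feedback and immediate early lists have theirs on the left.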

How the data were processed

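Sorted TAMs were measured by RNA-seq in 3 WT and 3 C5aR-/- libraries, grouped by the sample titles. The authors used fastp for trimming and HISAT2 for alignment, and assembled and quantified transcripts with StringTie. The submitters' processing notes name fastp, HISAT2, StringTie, RSEM, DESeq2 and the build mm10, and versions are not given in the sources used here. The deposited values are TPM per Ensembl gene, summing to 1000000 in each library. Mean TPM columns of each group, also deposited, were not used. Count models such as the authors' DESeq2 cannot be fitted to TPM, so limma was used. Symbols came from GENCODE M21 (52073 of 56980 IDs matched), and where several IDs shared a symbol the most abundant was kept. Spry3 and Rps6ka4 were not analysed here.

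Values were transformed to log2(TPM + 1). Genes reaching 1 TPM in 3 or more libraries were fitted with limma 3.58.1 in R 4.3.3 (lmFit, eBayes with trend, two-sided, Benjamini-Hochberg adjustment over 14776 genes). Intervals are limma's 95% intervals. Exact permutation tests used scipy 1.17.1, and Python 3.11.15, pandas 2.3.3, numpy 2.4.6 and matplotlib 3.10.9 handled tables and plots. In a test on simulated data for this comparison over 14776 genes, 200 genes were given a change. The adjusted threshold recovered 125 of them at a log2 change of 2, together with 4 unchanged genes, and 0 at a log2 change of 1. The unadjusted threshold recovered 189 and 85, together with 180 and 169 unchanged genes.

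The named genes are the 10 members, C5ar1, and in each pathway list up to 4 genes past the unadjusted threshold and the 2 with the highest mean TPM, with Fos, Jun, Egr1, Mapk3, Mapk8, Mapk9 and Mapk14; some genes that this rule names are not reported here. The members and lists were chosen with earlier results of these data known. As alternatives, the filter was dropped or raised to 5 TPM, the pseudocount was set to 0.1, values were rescaled (median of ratios, or quantile normalization), eBayes was run without trend, the replicate number was used as a block, and each library was left out.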

Additional observations from a re-analysis of the deposited data

How the results depend on the processing

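At the adjusted threshold 0 members passed in each of the 13 alternatives. Among all genes 0 passed, against 2 with eBayes without trend, and leaving out 1 library gave from 0 to 356, the highest without C5aR-/- TAM 1. The 733 genes past the unadjusted threshold became 475 when only genes reaching 5 TPM were tested, and from 567 (without WT TAM 2) to 1266 (without C5aR-/- TAM 1) with a library removed. The count of members past it was then from 1 (without WT TAM 2) to 3. Log2 differences ranged from 0.45 to 1.22 for Dusp1, -0.75 to 0.043 for Dusp2, -0.23 to 0.21 for Dusp5, 0.48 to 1.12 for Dusp6, -0.091 to 0.73 for Dusp8, 0.79 to 1.27 for Dusp14 and -0.094 to 0.26 for Dusp16. Other ranges that crossed 0 were those of Mapk3 (-0.19 to 0.04), Ier3 (-0.50 to 0.094), Jun (-0.41 to 0.86), Fos (-0.11 to 0.69), Ssh3 (-0.16 to 0.15), Spag9 (-0.19 to 0.16), Lamtor3 (-0.088 to 0.088) and Mapkapk3 (-0.0039 to 0.38). Signs also changed with quantile normalization (Ssh3 0.019, Lamtor3 0.011) and median-of-ratios scaling (Ssh3 0.039, Spag9 0.024, Lamtor3 0.036), where the main values were within 0.03 of 0. The cause was not tested.

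The main fit did not pair libraries by replicate number. Deviations from the group means correlated at 0.19, -0.01 and 0.27 between libraries of the same number 1, 2 and 3. Between libraries of different numbers the correlation was at most 0.09, for WT TAM 2 with C5aR-/- TAM 1. Library 2 of WT thus did not correlate best with its own number. With 3 libraries per group these values cannot decide whether the numbers mark pairs. A fit with the replicate block called 811 genes at the unadjusted threshold, and Dusp4 and Dusp14 were again the 2 members that passed. Depth is unknown, so its effect on the less abundant members could not be judged.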

Other observations

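Outside the 10 members, 17 of 21 other dual-specificity phosphatase genes were tested, 7 with a log2 difference above 0 and 10 below, and their median was -0.08 against -0.05 over all genes tested. At the unadjusted threshold 1 was higher and 0 were lower, where 2.13% and 2.84% of all genes passed. The higher gene was Dusp18, a small phosphatase without a kinase-binding domain that, like Dusp14, belongs to the atypical group. It was 2.03, 0.89 and 0.65 TPM in WT and 3.47, 5.42 and 5.41 TPM in C5aR-/- TAMs, so the groups did not overlap at these low levels (log2 difference 1.43, interval 0.68 to 2.17, adjusted p = 0.14 from limma). The most abundant of the list, Ssh3, which acts on cofilin, and Dusp11, which acts on RNA, averaged 77.2 and 73.6 TPM in WT and 76.9 and 64.8 TPM in C5aR-/- TAMs, with overlapping libraries. Dusp9, the relative of Dusp6 and Dusp7 on the X chromosome, reached a TPM of 1.55 in C5aR-/- TAM 3 and 0.71 or less in the other libraries and was not tested.

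Of other phosphatases directed at MAP kinases, 0 of 6 tested genes passed the unadjusted threshold, with a median log2 difference of 0.01. Ppm1a, a serine and threonine phosphatase that acts on p38 and JNK, was 69.7, 67.0 and 67.0 TPM in WT and 74.4, 88.5 and 81.0 TPM in C5aR-/- TAMs. Its groups did not overlap, but the interval of its log2 difference of 0.25 included 0 (-0.03 to 0.54). Among kinases activated by MAP kinases 0 of 9 and among scaffold and docking proteins 0 of 7 tested genes passed, with medians of 0.02 and -0.13. By limma, a raw p under 0.05 was found for 1 of the 6 phosphatases, 0 of the 9 kinases and 1 of the 7 scaffold genes, against 14.4% of all genes. Mapkapk2, the p38-activated kinase that stabilizes cytokine transcripts, averaged 133 ± 11.4 TPM in WT and 123 ± 12.6 TPM in C5aR-/- TAMs (SD, n = 3), a difference of the size of the spread between libraries.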
